A study of Mus musculus with 28 samples.

Results

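The naive pluripotency factors followed here are 10 genes: Klf2, Klf4, Klf5, Esrrb, Tfcp2l1, Zfp42, Tbx3, Nr0b1, Tcl1 and Fbxo15. They were chosen by symbol, as genes known for holding mouse stem cells in the naive state, and no measured value enters the rule. All 10 were found, each once, among the 53564 gene symbols of the table, and all 10 passed the filter on low values. The material was RNA of mouse cells (strain C57BL6) sequenced on the way from embryonic stem cells (ESCs) to primordial germ cells (PGCs, from which eggs and sperm later arise) and into early meiosis. There were 3 stem cell lines. LT cells were wild type and had long telomeres, ST was a knockout of Terc (the RNA template of telomerase) at generation 4 with short telomeres, and RT was an ESC line in which Terc had been rescued. Each was first cultured for 2 days with bFGF, Activin A and KSR as epiblast-like cells. The groups named 1dEB are day-1 embryoid bodies, aggregates 1 day into induction by BMP4 together with LIF, SCF and EGF. The groups named 1dMeioLC are meiocyte-like cells, for which PGC-like cells of day 4 of that induction were co-cultured for 1 day with female gonadal somatic cells of E12.5 Actin-GFP mice in 3 µM retinoic acid, before a sort for cells without GFP. E10.5PGC were PGCs sorted from E10.5 embryos by CD61 and SSEA1, and PGC-1dMeioLC were such PGCs after the same co-culture. This gave 16 libraries in 8 groups of 2: 1dEB from each of the 3 lines, 1dMeioLC from each of them, and the PGC groups.

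Nothing in the labels says that the libraries of a group came from separate cultures, clones or animals, so every p-value here measures only the spread between these libraries, which may be technical. The 2 libraries of a group give a mean and an SD (n = 2) but little precision, and a single comparison of 2 against 2 rests on the spread pooled over all 8 groups. Telomere length, Terc genotype, knockout generation and the line itself change together between LT, ST and RT. Their parts in a difference between lines cannot be told apart.

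As background, naive pluripotency is the state of the preimplantation epiblast and of mouse ESCs kept in LIF. LIF acts through the kinase JAK1 and the transcription factor STAT3, which turns on Klf4 and Tfcp2l1, while the zinc-finger factors Klf2, Klf4 and Klf5 act in overlapping ways on the same targets. Esrrb, an orphan nuclear receptor, and Tfcp2l1, a grainyhead-family factor, hold up the network downstream of LIF and Wnt signals, and Tbx3, a T-box factor, is fed by PI3K signalling. Nr0b1 (Dax1) is an X-linked orphan nuclear receptor, Zfp42 (Rex1) is a zinc-finger gene widely used to report the naive state, Tcl1 is a co-activator of the kinase Akt, and Fbxo15 encodes an F-box protein and is a classical ESC-specific target of Oct4 and Sox2. Much of the network is shut off on the way to the epiblast-like state and is partly regained in PGCs.

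Values are TPM (transcripts per 1000000, which are per gene length) rescaled so that the nuclear protein-coding genes of each library add up to 1000000. They are called coding TPM below. The rescaling matters because protein-coding genes held between 27.1% and 61.2% of the deposited TPM, least in RT 1dEB. Terc was listed at 0 in all 4 ST libraries, stood between 1.15 and 12.4 coding TPM in the libraries of the 4 other ESC-derived groups and was 1.55 and 1.59 in E10.5PGC. It was also listed at 0 in both PGC-1dMeioLC libraries, whose labels name no knockout. Replicates correlated across genes with Pearson's r between 0.957 and 0.982, lowest in RT 1dEB. Sequencing depth is unknown, since only TPM was used. The defining germ cell markers Ddx4 and Dppa3 were present in every group, with Ddx4 at 61.8 and 54.2 coding TPM in LT 1dMeioLC, 10.6 and 10.3 in ST 1dMeioLC and 51.3 and 46.7 in E10.5PGC.

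The promoters below are of 2 members with their highest group mean in 1dEB cells (Klf4 and Klf2) and of 2 with their highest group mean in E10.5 PGCs (Zfp42 and Tcl1), and they are shown as examples of these opposite patterns. Each run is the 250 bases before the RefSeq gene start, 5′ to 3′ along the gene (build GRCm38.p6), and capitals mark the letters of a KLF-type box, GGGNGNGG on either strand. They lie at chr4:55532476-55532725 (minus strand) for Klf4, chr8:72318812-72319061 (plus strand) for Klf2, chr8:43307010-43307259 (minus strand) for Zfp42 and chr12:105222738-105222987 (minus strand) for Tcl1.
Klf4: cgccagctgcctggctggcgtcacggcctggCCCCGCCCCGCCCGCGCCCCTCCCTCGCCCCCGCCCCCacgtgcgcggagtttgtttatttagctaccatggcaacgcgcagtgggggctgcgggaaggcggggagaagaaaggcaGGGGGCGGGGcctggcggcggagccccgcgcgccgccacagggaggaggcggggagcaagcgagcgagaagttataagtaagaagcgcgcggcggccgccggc
Klf2: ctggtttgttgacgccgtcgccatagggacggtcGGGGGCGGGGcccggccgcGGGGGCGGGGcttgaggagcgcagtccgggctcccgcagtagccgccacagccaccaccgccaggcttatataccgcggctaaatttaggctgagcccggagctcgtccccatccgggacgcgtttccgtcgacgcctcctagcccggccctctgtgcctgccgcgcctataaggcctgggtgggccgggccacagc
Zfp42: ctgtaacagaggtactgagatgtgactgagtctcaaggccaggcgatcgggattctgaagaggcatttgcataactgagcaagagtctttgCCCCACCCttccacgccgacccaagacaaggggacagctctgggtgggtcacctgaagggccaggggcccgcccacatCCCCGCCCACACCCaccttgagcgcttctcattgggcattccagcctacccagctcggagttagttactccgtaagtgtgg
Tcl1: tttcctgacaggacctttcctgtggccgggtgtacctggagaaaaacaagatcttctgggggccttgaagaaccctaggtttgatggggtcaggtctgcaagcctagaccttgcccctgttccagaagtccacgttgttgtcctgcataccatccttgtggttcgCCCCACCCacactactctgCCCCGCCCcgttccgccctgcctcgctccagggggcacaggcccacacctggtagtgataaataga
Over the whole RefSeq window, 250 bases before to 50 after the start, the KLF-type box matched 9 times for Klf4, 4 times for Klf2, 4 times for Zfp42 (1 of them 27 bases after the start, outside the run shown) and 2 times for Tcl1. Matches overlap one another and the GC box GGGCGG. At least 1 match is common: 49.5% of all 32851 windows hold the KLF-type box and 35.7% the GC box. Klf4 and Klf2 had 40 and 32 CpG dinucleotides in that window, Zfp42 and Tcl1 had 11 each, and the median of all windows was 7. CpG number did not follow the 2 patterns throughout. Tfcp2l1 and Esrrb, also highest in 1dEB cells in coding TPM, had 21 and, in each window of Esrrb, 7. On deposited TPM Esrrb was highest in E10.5PGC (mean 23.6, against 15.5 in RT 1dEB). On that scale Tfcp2l1 was highest in ST 1dMeioLC (11.0, against 8.96 in ST 1dEB). Nr0b1, highest in ST 1dMeioLC, had 14. The octamer ATGCAAAT, held by 1.74% of windows, occurred in Zfp42, 186 bases before the start on the minus strand. The Esrrb-type nuclear receptor site AAGGTCA, held by 4.72% of windows, matched none of the 8 windows of the 7 members that could be paired by symbol. These matches describe letters only.

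Summed over the 10 genes, the naive factors stood at 508 ± 27.5 coding TPM (SD, n = 2) in the LT embryoid bodies, 582 ± 20.7 in those of ST and 588 ± 0.623 in those of RT. The sums were lower in the 1dMeioLC groups, at 242 ± 4.64 in LT, 321 ± 13.3 in ST, 251 ± 3.56 in RT and 223 ± 1.36 in PGC-1dMeioLC. E10.5PGC had the highest sum, 684 ± 14.1. The sum hid a change of composition: Klf2 made up 32.9% of it in LT 1dEB and 11.0% in E10.5PGC, whereas Tcl1 made up 2.48% and 42.5%. In bulk RNA, fewer cells expressing a gene and less RNA per cell cannot be told apart.

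**Figure D1:**
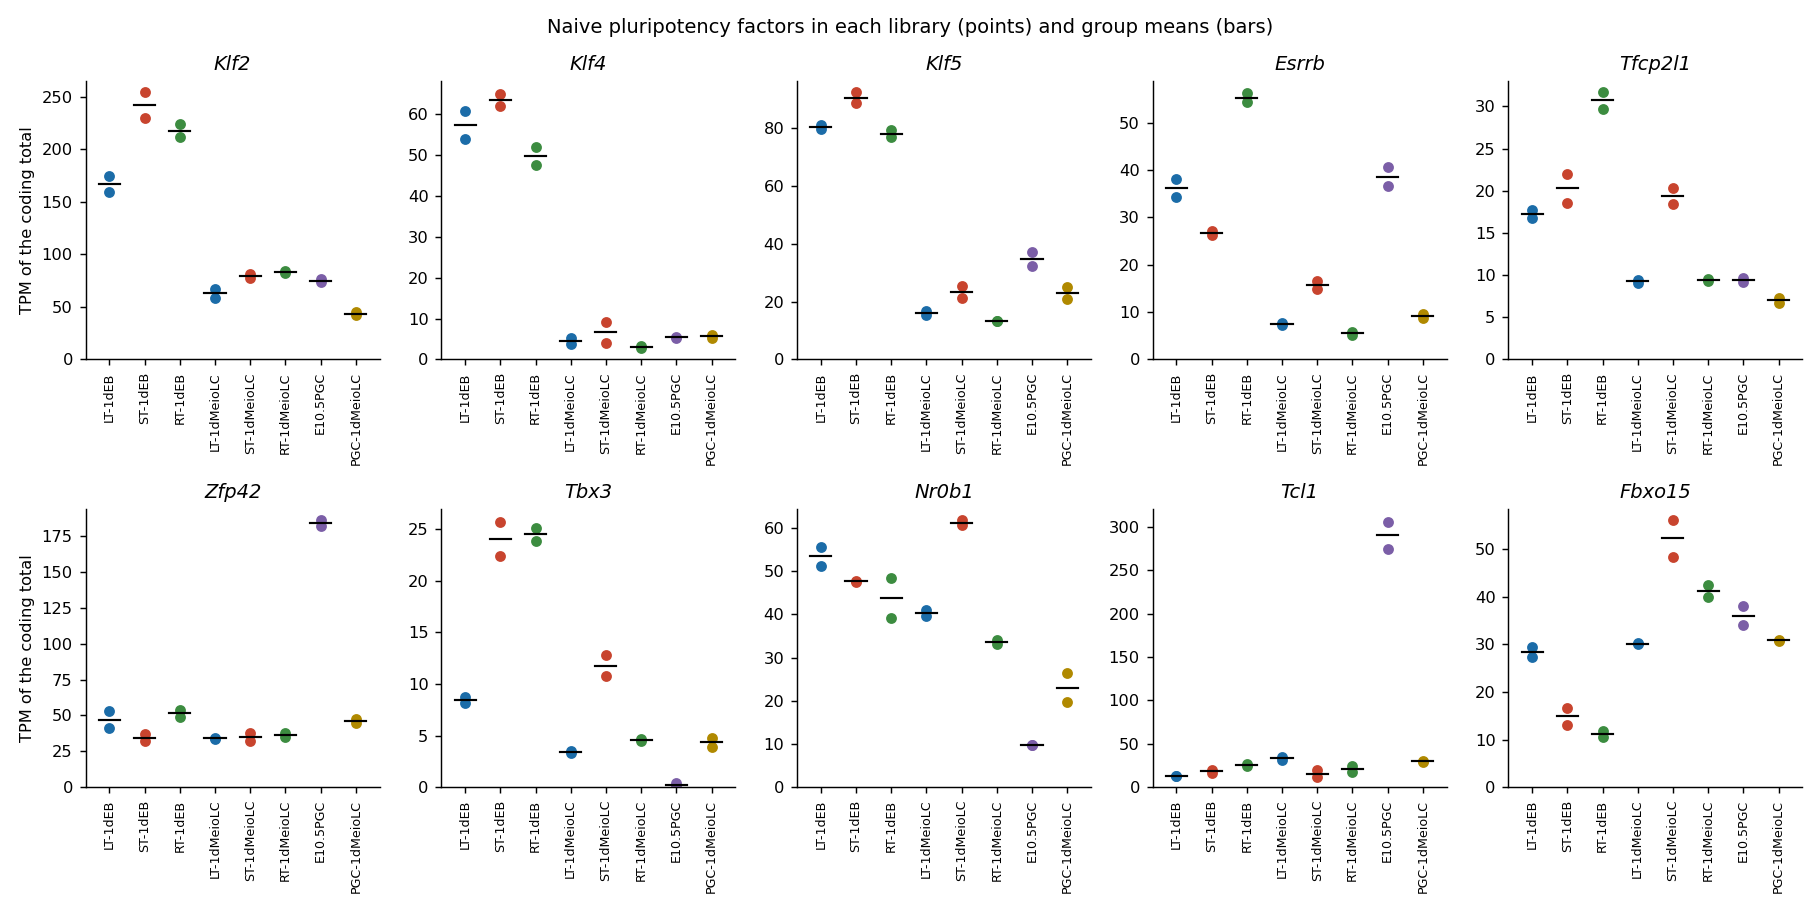
Level of each of the 10 naive pluripotency factors in coding TPM (y axis, from 0, a scale of its own for each gene) in the 8 groups (x axis). Points are the 2 libraries of a group and bars the mean; Klf2, Klf4 and Klf5 were highest in ST 1dEB, and Zfp42 and Tcl1 stood far higher in E10.5PGC than in any other group.

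The 3 Krüppel-like factors shared 1 pattern, high in all 1dEB groups and low afterwards. Klf2 was 175 and 159.5 coding TPM in the LT 1dEB libraries, 229 and 254 in ST and 224 and 212 in RT. In the 1dMeioLC groups it was 58.9 and 67.5 in LT, 81.6 and 77.6 in ST, 82.6 and 84.0 in RT, against 73.8 and 76.4 in E10.5PGC and 45.2 and 42.3 in PGC-1dMeioLC. In the order of its levels no group of Klf2 overlapped the next, but some margins were small, as between ST 1dMeioLC (77.6) and E10.5PGC (76.4). Among the 10, Fbxo15 was the only other member without such overlap. How often this holds over all genes was not counted. Klf4 was 60.6 and 53.9 in LT 1dEB, 64.9 and 61.9 in ST 1dEB and 47.4 and 51.9 in RT 1dEB. In every other library it lay between 2.82 and 9.17 coding TPM, and the ranges of ST 1dMeioLC, PGC-1dMeioLC, E10.5PGC and LT 1dMeioLC could not be set in order, since neighbours overlapped. Klf4 had the second-widest span among the members that stayed above 1 coding TPM, 20.5-fold from ST 1dEB to RT 1dMeioLC.

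Klf5 was 79.9 and 81.1 coding TPM in LT 1dEB, 88.7 and 92.4 in ST and 79.2 and 77.1 in RT. It was then 15.5 and 16.8 in LT 1dMeioLC, 25.5 and 21.2 in ST, 13.5 and 13.4 in RT, 32.3 and 37.1 in E10.5PGC and 20.8 and 25.2 in PGC-1dMeioLC. ST 1dMeioLC and PGC-1dMeioLC overlapped and every other pair of neighbours was apart. Esrrb spanned 10.0-fold and put E10.5PGC (36.7 and 40.5) beside LT 1dEB (38.1 and 34.4), with RT 1dEB above both (54.3 and 56.2) and ST 1dEB below (26.3 and 27.1). The 1dMeioLC levels of Esrrb were 7.77 and 7.28 in LT, 16.6 and 14.9 in ST, 5.90 and 5.15 in RT and 9.52 and 8.74 in PGC-1dMeioLC. Tfcp2l1 had the narrowest span, 4.39-fold, from 31.7 and 29.7 in RT 1dEB to 6.64 and 7.34 in PGC-1dMeioLC. ST kept it at 22.0 and 18.6 in 1dEB and 18.4 and 20.3 in 1dMeioLC, which overlapped. These ranks are of coding TPM. On deposited TPM Esrrb was highest in E10.5PGC and Tfcp2l1 in ST 1dMeioLC.

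Zfp42 and Tcl1 were highest in PGCs. Zfp42 was 182 and 186 coding TPM in E10.5PGC and between 32.0 and 53.7 in all 14 other libraries, where most neighbouring groups overlapped. Tcl1 was 306 and 275 in E10.5PGC, 35.0 and 31.7 in LT 1dMeioLC, 30.8 and 29.1 in PGC-1dMeioLC and 12.9 and 12.3 in LT 1dEB, its lowest group. Tbx3 and Nr0b1 were lowest where those were highest. Tbx3 was 0.363 and 0.153 in E10.5PGC, the only group mean of any member under 1 coding TPM, against 8.15 and 8.76 in LT 1dEB, 22.4 and 25.7 in ST 1dEB and 25.1 and 23.9 in RT 1dEB. Nr0b1 was 9.79 and 9.68 in E10.5PGC and highest in ST 1dMeioLC at 61.9 and 60.6. Fbxo15 ran against the Krüppel-like factors, with 10.47 and 11.7 in RT 1dEB, its lowest group, and 48.3 and 56.1 in ST 1dMeioLC, its highest.

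Over the 8 group means the 45 pairs of members had Pearson's r from -0.93 to 0.96 with a median of 0.21, and 19 pairs were negative. The highest were Klf4 with Klf5 (0.96), Klf2 with Klf4 (0.91) and Zfp42 with Tcl1 (0.91), and the lowest were Nr0b1 with Tcl1 (-0.93) and Zfp42 with Nr0b1 (-0.85). On deposited TPM the lowest were Zfp42 with Tbx3 (-0.86) and Tbx3 with Tcl1 (-0.84). Nr0b1 with Tcl1 was then -0.72 and Klf2 with Klf4 0.78. These values are descriptions over 8 points that share stage and scaling, and for the pairs with Tcl1, Zfp42 or Nr0b1 the E10.5PGC group lies far from the rest. Among 13355 genes searched, those whose group means were most like the member's were Mink1, Mta2 and Luzp1 for Klf4 (r = 0.997 for Mink1), Fastk, Vcp and Sssca1 for Klf2 (0.986 for Fastk), Ssrp1, Dmac2 and Sptan1 for Esrrb (0.983 for Ssrp1) and Fermt2, Rab15 and Ciz1 for Tbx3 (0.992 for Fermt2). For the members highest in PGCs they were Ttc5, Cfdp1 and Scgn for Zfp42 (0.989 for Ttc5) and Mapk13, Umodl1 and Ndufaf4 for Tcl1 (0.983 for Mapk13). The search was over 8 values per gene, and on deposited TPM other genes led for some members, with Mink1 kept for Klf4.

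From 1dEB to 1dMeioLC, Klf4, Klf5, Esrrb, Klf2 and Tbx3 fell in wild-type cells and Tcl1 rose. In LT 8 of 10 fell and 1 rose, where 23.7% of the 26820 genes tested were called higher and 33.5% lower (limma, Benjamini-Hochberg adjusted p under the threshold of 0.05). On deposited TPM that split over all genes was 8871 higher and 5269 lower, in place of 6356 and 8977. The median change of the members was -0.97 on the log2(value + 1) scale and that of all genes -0.14. Klf4 fell by 3.4 (SE 0.26, adjusted p = 9.6e-07), Klf5 by 2.25 (2.8e-08), Esrrb by 2.13 (1.6e-08), Klf2 by 1.39 (9.3e-08), Tbx3 by 1.11 (4.5e-05) and Tfcp2l1 by 0.83 (3.2e-05). Zfp42 fell by 0.45 (adjusted p = 0.0073) and Nr0b1 by 0.40 (0.019), and both calls were lost under median ratio scaling (-0.10 and -0.04) and quantile normalization (-0.14 and -0.10). Tcl1 rose by 1.34 (SE 0.21, adjusted p = 3.2e-04), from 12.9 and 12.3 to 35.0 and 31.7 coding TPM with no overlap, and Fbxo15 differed by 0.08 (0.57). Fbxo15 was called higher on deposited TPM (0.69, 2.7e-04), under median ratio scaling (0.42, 0.006) and under quantile normalization (0.39, 0.0072). Each of these scalings thus gave 2 members that rose, beside 5 that fell on deposited TPM, where Tfcp2l1 was lost too (-0.21, 0.065), and 6 under the other two. Without LT 1dEB replicate 1 the adjusted p of Zfp42 was 0.07 and that of Nr0b1 0.1, and Nr0b1 was also lost without LT 1dMeioLC replicate 1 (0.083) or replicate 2 (0.055).

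Over the same step in ST, 5 of the 10 fell and 2 rose, beside 21.8% of all genes called higher and 34.0% lower (5838 and 9125, against 7311 and 6493 on deposited TPM). Whether the steps in LT and ST differed in the number of members changed was not tested. Klf4 fell by 3.16 (adjusted p = 1.9e-06), Klf5 by 1.92 (1.1e-07), Klf2 by 1.59 (4.1e-08), Tbx3 by 0.97 (1.3e-04) and Esrrb by 0.73 (6.6e-05). Fbxo15 rose by 1.75 (SE 0.11, adjusted p = 3.3e-07), from 13.1 and 16.6 to 48.3 and 56.1 coding TPM, and Nr0b1 by 0.35 (0.034), a call lost without any 1 of the 4 libraries (adjusted p from 0.087 to 0.11). Tfcp2l1 (-0.06, 0.66), Zfp42 (0.02, 0.95) and Tcl1 (-0.25, 0.36) had overlapping libraries in both stages. Deposited TPM and quantile normalization each gave 4 members higher and 5 lower, with Tfcp2l1 (0.27, 0.025 and 0.25, 0.034) and Zfp42 (0.36, 0.026 and 0.32, 0.038) called higher. The fit without ST 1dMeioLC replicate 1 called Tcl1 lower (-0.61, adjusted p = 0.019).

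In RT, 8 of 10 fell and 1 rose, with 19.8% of all genes called higher and 45.0% lower and a median over all genes of -0.52, against -1.49 for the members. Klf4 fell by 3.63 (adjusted p = 5e-07), Esrrb by 3.11 (SE 0.09, 1e-09), Klf5 by 2.46 (1.3e-08), Tbx3 by 2.19 (2e-07), Tfcp2l1 by 1.60 (1.6e-07) and Klf2 by 1.37 (9e-08). Zfp42 fell by 0.49 (0.0039) and Nr0b1 by 0.36 (0.025), while Fbxo15 rose by 1.80 (2e-07). Zfp42 and Nr0b1 were lost under median ratio scaling (-0.15, 0.28 and -0.02, 0.88) and quantile normalization (-0.09, 0.54 and 0.08, 0.61). On deposited TPM 4 members rose and 6 fell in this step: the median of all genes was 0.30, the split over all genes was 9579 higher and 4828 lower in place of 5320 and 12057, and Zfp42 (0.58, adjusted p = 0.0018), Nr0b1 (0.69, 8.7e-04) and Tcl1 (0.73, 0.0083) were called higher. Nr0b1 was also lost without RT 1dEB replicate 2 (0.21), RT 1dMeioLC replicate 1 (0.096) or replicate 2 (0.063).

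**Figure D2:**
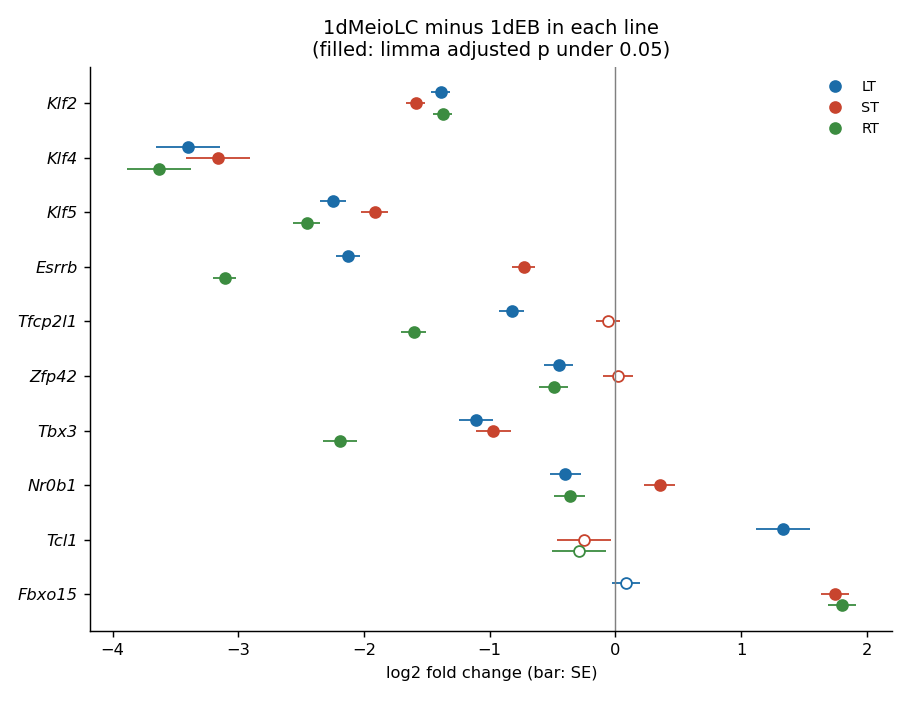
Change of each member from 1dEB to 1dMeioLC (x axis, difference of log2(coding TPM + 1)) in LT, ST and RT, with bars of 1 SE from limma and filled points where the adjusted p passed the threshold. Klf4, Klf5, Klf2 and Tbx3 lay below 0 in all 3, whereas Esrrb ranged from -3.11 in RT to -0.73 in ST and Fbxo15 from 0.08 in LT to 1.80 in RT.

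Markers of other cells moved over the same step. The summed level of 11 gonadal somatic markers was 51.8 to 99.7 coding TPM in the 6 1dEB libraries of LT, ST and RT and 399 to 728 in the 6 1dMeioLC libraries of these lines, in which all 11 had a mean of at least 1. That of 12 blood and endothelial markers was 56.3 to 101 in 1dEB and 1357 to 2692 in 1dMeioLC, beside a mean of 1312 in E10.5PGC. Over this step in LT 8 of the 11 tested were called higher and 2 lower, beside 23.7% and 33.5% of all genes. Such a sum need not follow most of its genes. Its mean was 2685 in ST and 2093 in LT 1dMeioLC, yet 0 markers were called higher and 4 lower in ST, beside 16.9% and 11.9% of all genes. In 1dMeioLC 2 of the 12 had means under 1 in LT and in RT, and 4 in ST. Means of the endothelial receptor Kdr there were 2.44 to 2.56, and Cdh5 was listed at 0 in ST. Germ cell markers, 11 in all, summed to 140 to 229 in 1dEB and 988 to 2521 in 1dMeioLC. The part of these cells in the members' changes was not tested.

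**Figure D3:**
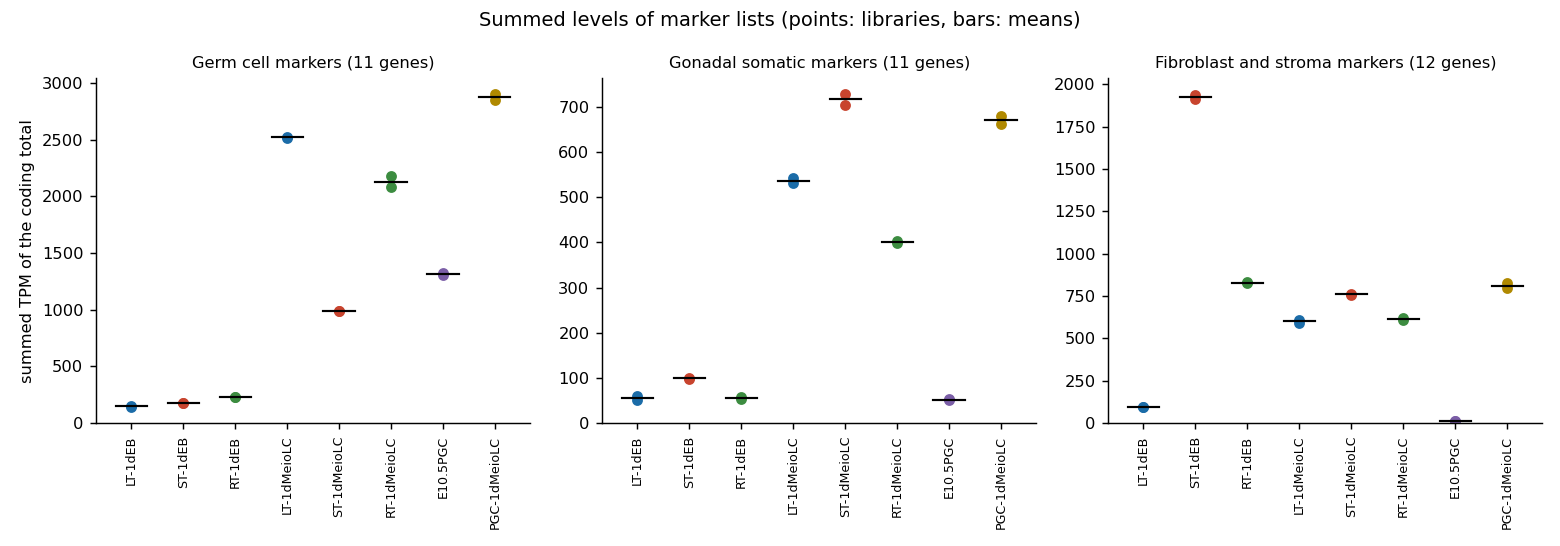
Summed level of the germ cell, the gonadal somatic and the fibroblast and stroma marker lists in coding TPM (y axis, from 0) in the 8 groups (x axis), with a point for each library and a bar for the mean. Germ cell markers were lowest among the 1dMeioLC groups in ST, and stroma markers were highest of all groups in ST 1dEB.

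At 1dEB, the ST line differed from the LT line in 5 naive factors, in both directions. Tbx3 and Klf2 were higher and Fbxo15, Esrrb and Zfp42 lower in ST, while 35.2% of all genes were called, 5140 higher and 4304 lower (5866 and 2551 on deposited TPM). The members' median was 0.16 and that of all genes 0.00. Tbx3 was 8.15 and 8.76 coding TPM in LT and 22.4 and 25.7 in ST, a difference of 1.40 on the log2(value + 1) scale (SE 0.14, adjusted p = 2.1e-05). Klf2 differed by 0.53 (0.08, 3.6e-04). Fbxo15 was 27.3 and 29.4 in LT and 13.1 and 16.6 in ST (-0.90, SE 0.11, 1.2e-04), and Esrrb was 38.1 and 34.4 against 26.3 and 27.1 (-0.43, 0.005). Zfp42 differed by -0.44 (0.015), and Klf4 (0.15, 0.73), Klf5 (0.17, 0.27), Tfcp2l1 (0.22, 0.11), Nr0b1 (-0.16, 0.37) and Tcl1 (0.50, 0.1) were not called.

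The call of Zfp42 was lost without LT 1dEB replicate 1 (-0.26, adjusted p = 0.13) or ST 1dEB replicate 2 (0.11). On deposited TPM 5 members were called higher and 1 lower: Esrrb (0.082) and Zfp42 (0.16) were lost and Klf5 (0.35, 0.023), Tfcp2l1 (0.38, 0.0074) and Tcl1 (0.62, 0.032) were called higher. Tfcp2l1 was also called under median ratio scaling (0.27, 0.029). Beside these values, the 12 fibroblast and stroma markers, all called higher in ST, summed to 93.1 and 97.7 coding TPM in LT and 1915 and 1938 in ST, and 11 of 14 immediate early genes were called higher in ST. Of 8 extraembryonic endoderm markers 7 were higher, with sums of 18.1 and 18.6 in LT and 133 and 136 in ST, and of 11 germ cell markers 3 were higher and 6 lower. Klf2 is also a gene of endothelium. Among the endothelial markers Kdr, Cdh5 and Tie1 had means under 1 coding TPM in LT, ST and RT 1dEB, Tek had means of 2.10 in LT and 2.12 in ST, and Plvap 15.3 in LT and 5.00 in ST. The part of these cells in the members' differences was not tested.

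The rescued line differed from ST in Esrrb, Tfcp2l1, Zfp42 and Fbxo15. In RT against ST 1dEB, Esrrb was higher by 1.02 (SE 0.09, adjusted p = 2.2e-05), Tfcp2l1 by 0.58 (0.0011) and Zfp42 by 0.57 (0.004), and Fbxo15 was lower still, by -0.39 (0.022). These are 3 members higher and 1 lower, close to the share of all genes called, which was 35.5%, with 5564 higher and 3954 lower. Tbx3 was 22.4 and 25.7 coding TPM in ST and 25.1 and 23.9 in RT, overlapping (0.03, 0.92), and Klf2 differed by -0.15 (0.17). The split turned on deposited TPM, on which 1 member was higher and 6 lower (over all genes 1127 and 9778) and the protein-coding share of RT 1dEB was the smallest: Tbx3 (-0.56, 0.0021), Klf2 (-0.79, 9.6e-06), Klf4 (-0.96, 0.0058), Klf5 (-0.84, 7.6e-05) and Nr0b1 (-0.74, 8.7e-04) were called lower in RT, and Tfcp2l1 and Zfp42 were no longer called. Fbxo15 was lost without ST 1dEB replicate 2 (0.17) or RT 1dEB replicate 1 (0.13). In the same comparison 11 of 12 fibroblast and stroma markers were lower in RT, with sums of 1915 and 1938 coding TPM in ST and 826 and 832 in RT. Of 8 extraembryonic endoderm markers 7 were lower (133 and 136 against 39.8 and 38.8), and of 11 germ cell markers 7 were higher and 2 lower (178 and 174 against 229 in both RT libraries). Their part was not tested.

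RT against LT 1dEB shares its libraries with both comparisons above. It called 5 members higher and 1 lower, beside 37.4% of all genes called (6704 higher and 3340 lower, against 2346 and 6786 on deposited TPM) and a median of all genes of 0.15. Tbx3 was higher in RT by 1.43 (SE 0.14, adjusted p = 2.5e-05), Tcl1 by 0.96 (0.0052), Tfcp2l1 by 0.80 (1.3e-04), Esrrb by 0.60 (6.7e-04) and Klf2 by 0.38 (0.0031), and Fbxo15 was lower by -1.28 (SE 0.11, 1.4e-05). Zfp42 overlapped, with 52.9 and 41.4 coding TPM in LT and 49.1 and 53.7 in RT. On deposited TPM 2 members were higher and 3 lower: Esrrb (0.14, 0.28) and Tcl1 (0.48, 0.085) were not called, Klf2 turned to -0.08, and Klf5 (-0.49, 0.0039) and Nr0b1 (-0.71, 0.0015) were called lower. Nr0b1 was also called lower without RT 1dEB replicate 2 (-0.44, 0.041). All 12 fibroblast and stroma markers were called higher in RT, with a median difference of 2.03 and sums of 93.1 and 97.7 coding TPM in LT and 826 and 832 in RT, and 10 of 14 immediate early genes were higher and 1 lower. Their part was not tested.

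At 1dMeioLC the naive factors were mostly higher in the ST line than in the LT line. In ST against LT, 7 of 10 were called higher and 1 lower, beside 16.9% of all genes called higher and 11.9% lower. The members' median was 0.55 and that of all genes 0.00. Tbx3 was 3.27 and 3.49 coding TPM in LT and 10.8 and 12.8 in ST (1.54, SE 0.14, adjusted p = 3.8e-05). Tfcp2l1 was 9.44 and 9.10 against 18.4 and 20.3 (0.99, SE 0.10, 7.1e-05), and Esrrb 7.77 and 7.28 against 16.6 and 14.9 (0.97, SE 0.09, 6.3e-05). None of these overlapped. Fbxo15 (0.77, 7.2e-04), Nr0b1 (0.59, 0.0055), Klf5 (0.50, 0.0059) and Klf2 (0.33, 0.0093) were higher by less. Tcl1 went the other way, from 35.0 and 31.7 in LT to 19.8 and 11.5 in ST (-1.09, SE 0.21, 0.0039), and Zfp42 was 33.6 and 34.3 against 38.0 and 32.0 (0.04, 0.94).

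Klf4 differed by 0.39 (0.31) with 9.17 and 4.09 coding TPM in the ST libraries, and without ST 1dMeioLC replicate 2 it was called (0.89, 0.0051). Klf2 was lost without LT 1dMeioLC replicate 1 (0.079) or ST 1dMeioLC replicate 1 (0.061), under median ratio scaling (0.055) and under quantile normalization (0.069), and Klf5 without ST 1dMeioLC replicate 1 (0.051). Marker lists differed as well: the germ cell markers summed to 2518 and 2521 coding TPM in LT and 990.5 and 988 in ST, with 7 of 11 called lower in ST. The gonadal somatic markers summed to 532 and 541 in LT and 728 and 704 in ST, with 4 of 11 called higher and 2 lower. Xist, which marks an inactive X chromosome, had means of 6.60 in LT and 15.3 in ST. The co-cultured gonadal cells were female, and neither the source of Xist nor its relation to the X-linked Nr0b1 was tested. The part of these differences in the members' values was not tested.

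Most of the members called higher in ST were lower in the rescued line. This comparison uses the same ST libraries as ST against LT. A high value in these libraries enters both, so the comparisons are not independent. In RT against ST 1dMeioLC 7 members were called lower and 0 higher (limma; Tcl1, the nearest, had an unadjusted p of 0.075), beside 20.2% of all genes lower and 8.87% higher (5405 and 2380, against 3328 and 2938 under quantile normalization). The members' median was -0.78 and that of all genes -0.03. Esrrb differed by -1.36 (SE 0.09, adjusted p = 1e-05), Tbx3 by -1.19 (1.8e-04), Tfcp2l1 by -0.97 (8.9e-05), Nr0b1 by -0.85 (8e-04) and Klf5 by -0.75 (6.4e-04), all without overlap. Klf4 (-0.82, 0.035) and Fbxo15 (-0.33, 0.049) were near the threshold. The call of Klf4 was lost without ST 1dMeioLC replicate 1 (-0.32, 0.21), RT 1dMeioLC replicate 1 (0.15) or replicate 2 (0.079), on deposited TPM (0.053), under median ratio scaling (0.066) and under quantile normalization (0.094). That of Fbxo15 was lost without ST 1dMeioLC replicate 2 (0.27), RT 1dMeioLC replicate 1 (0.092) or replicate 2 (0.2), on deposited TPM (0.14), under median ratio scaling (0.25) and under quantile normalization (0.42). Klf2 (0.07, 0.62), Zfp42 (0.05, 0.86) and Tcl1 (0.43, 0.18) were not called. Tcl1 was called higher in RT under quantile normalization (0.64, 0.041) and without ST 1dMeioLC replicate 1 (0.79, 0.015). Over the same comparison 8 of 11 germ cell markers were higher and 1 lower in RT, and 6 of 11 gonadal somatic markers were lower and 1 higher. Their part was not tested.

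RT and LT 1dMeioLC differed in 3 of the 10 members. Klf2 (0.40, adjusted p = 0.0087) and Fbxo15 (0.44, 0.03) were called higher and Esrrb (-0.39, 0.023) lower in RT, beside 4.76% of all genes higher and 8.63% lower (1277 and 2315, against 1510 and 1682 under quantile normalization). All 3 calls were fragile, and they fell to between 0 and 2 when 1 library was left out. Fbxo15 was lost without any 1 of the 4 libraries (0.081 to 0.14), Esrrb without LT 1dMeioLC replicate 1 (0.12), replicate 2 (0.077) or RT 1dMeioLC replicate 2 (0.14) and under quantile normalization (0.09), and Klf2 without LT 1dMeioLC replicate 1 (0.066) or RT 1dMeioLC replicate 2 (0.052). Tfcp2l1 was 9.44 and 9.10 coding TPM in LT and 9.57 and 9.28 in RT. Tbx3 stood at 3.27 and 3.49 in LT and 4.67 and 4.48 in RT (0.35, 0.13).

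**Figure D4:**
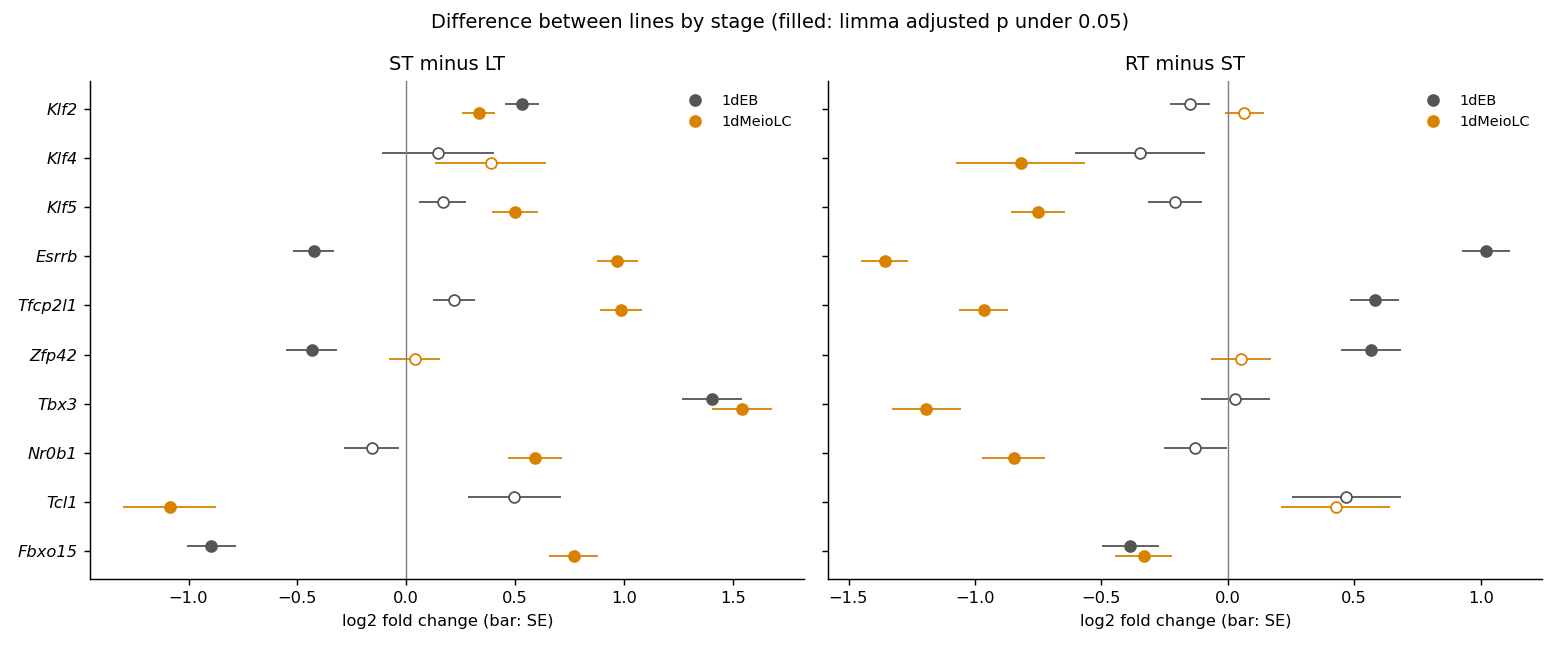
Difference of each member for ST minus LT (left) and RT minus ST (right), in log2(coding TPM + 1) with bars of 1 SE from limma, at 1dEB and at 1dMeioLC; filled points passed the adjusted p threshold. Tbx3 was higher in ST than in LT at both stages (1.40 and 1.54), whereas Esrrb and Fbxo15 in ST minus LT were below 0 at 1dEB and above it at 1dMeioLC.

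The difference between ST and LT depended on the stage for 5 of the naive factors. The difference between the ST minus LT effect at 1dMeioLC and at 1dEB was tested directly, and 32.6% of all genes passed in either direction (4307 positive and 4429 negative, against 2682 and 5789 on deposited TPM). It was 1.67 for Fbxo15 (SE 0.16, adjusted p = 3.3e-05), 1.40 for Esrrb (0.13, 3.2e-05), 0.77 for Tfcp2l1 (0.14, 0.0019) and 0.75 for Nr0b1 (0.18, 0.0083), and -1.58 for Tcl1 (0.30, 0.0027). Fbxo15 and Esrrb were lower in ST at the first stage and higher at the second. For Tbx3 the difference was 0.14 (SE 0.19, 0.63) and for Klf2 -0.20 (SE 0.11, 0.2), but Klf2 was called negative on deposited TPM (-0.48, 0.005) and under median ratio scaling (-0.37, 0.031). Nr0b1 was not called on deposited TPM (0.46, 0.078), and the fit without ST 1dMeioLC replicate 2 also called Klf4 (0.026), Klf5 (0.045) and Zfp42 (0.032). For RT minus ST, 33.2% of all genes passed (2931 positive and 5960 negative, against 7587 and 1677 on deposited TPM). In it 6 members were called, each negative on this scale: Esrrb -2.38 (SE 0.13, 1.8e-06), Tfcp2l1 -1.55 (3.3e-05), Tbx3 -1.22 (0.001), Nr0b1 -0.72 (0.011), Klf5 -0.54 (0.02) and Zfp42 -0.51 (0.038). That for Esrrb was positive at 1dEB and negative at 1dMeioLC. Klf5 and Zfp42 were lost under median ratio scaling (0.088 and 0.13) and quantile normalization (0.099 and 0.088) and turned on deposited TPM (0.21 and 0.22), on which Nr0b1 was 0.0025. Klf2 was called positive under median ratio scaling (0.37, 0.032), with 4 members negative, and on deposited TPM Klf2 (0.96, 5.6e-05) and Fbxo15 (0.64, 0.0076) were positive and 3 members negative. Klf5 was lost without ST 1dEB replicate 1 (0.057), RT 1dEB replicate 1 (0.058), ST 1dMeioLC replicate 1 (0.07) or RT 1dMeioLC replicate 2 (0.05), and Zfp42 without any of 6 libraries (0.051 to 0.13).

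PGCs from embryos had much lower levels of Tcl1, Zfp42 and Esrrb after the co-culture than before it. Of the 10, 6 were called lower and 2 higher in PGC-1dMeioLC than in E10.5PGC, beside 12.6% and 33.4% of all genes (3374 and 8955, against 5588 and 5479 under quantile normalization). The members' median was -0.48 and that of all genes 0.18. Tcl1 went from 306 and 275 coding TPM to 30.8 and 29.1 (-3.24, SE 0.21, adjusted p = 6.3e-07), Zfp42 from 182 and 186 to 47.5 and 44.5 (-1.98, SE 0.12, 3e-07) and Esrrb from 36.7 and 40.5 to 9.52 and 8.74 (-1.97, SE 0.09, 5.9e-08). Klf2 (-0.77, 1.5e-05), Klf5 (-0.57, 0.0012) and Tfcp2l1 (-0.39, 0.0071) fell by less, and Tfcp2l1 was lost without PGC-1dMeioLC replicate 1 (0.055). Tbx3 rose from 0.363 and 0.153 to 4.79 and 3.89 (2.09, SE 0.14, 5.9e-07), a value that the added 1 makes smaller than the ratio of levels, and Nr0b1 rose from 9.79 and 9.68 to 19.7 and 26.4 (1.15, SE 0.13, 2.5e-05). Klf4 (0.05, 1.0) overlapped and Fbxo15 was -0.22 (0.15). Fbxo15 was called lower on deposited TPM (-0.37, 0.015) and under quantile normalization (-0.43, 0.0055), which makes 7 members lower on each.

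The gonadal somatic markers went from 50.4 and 53.4 coding TPM in E10.5PGC to 680 and 662 in PGC-1dMeioLC, with all 11 called higher and Foxl2 listed at 0 in both E10.5PGC libraries. Fibroblast and stroma markers went from 13.6 and 15.7 to 825 and 795, and 12 of 14 immediate early genes were higher. Germ cell markers summed to 1305 and 1327 before and 2850 and 2901 after, while 5 of the 11 were called higher and 5 lower, with a median difference of -0.13. The part of somatic cells in the rise of Tbx3 and Nr0b1, or of a change of cell mixture in the falls, was not tested.

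**Figure D5:**
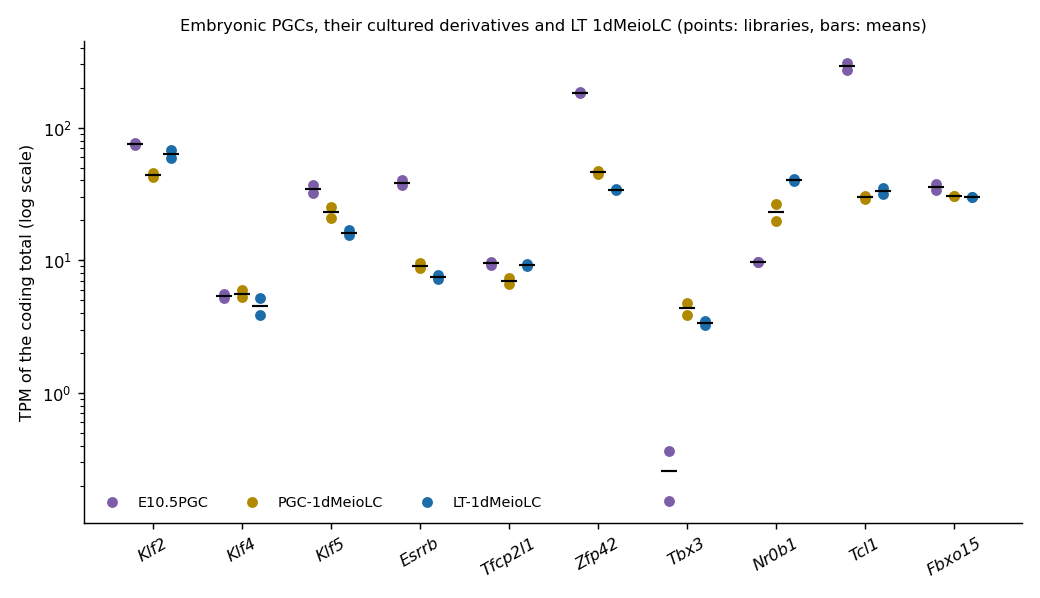
Level of each member in coding TPM (y axis, log scale) in E10.5PGC, PGC-1dMeioLC and LT 1dMeioLC, with a point for each library and a bar for the mean. Tcl1, Zfp42 and Esrrb were lower in both cultured groups than in E10.5PGC, and Tbx3 was higher.

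Between cultured cells of both origins 5 members differed. LT 1dMeioLC against PGC-1dMeioLC called 3 higher and 2 lower in LT, beside 7.24% and 11.5% of all genes (1941 and 3096, against 2946 and 1809 on deposited TPM). Nr0b1 was 39.6 and 41.0 coding TPM in LT and 19.7 and 26.4 in PGC-1dMeioLC (0.79, SE 0.13, adjusted p = 0.0021), and Klf2 was 58.9 and 67.5 against 45.2 and 42.3 (0.52, 0.0016). On deposited TPM only the 3 higher were called. Tfcp2l1 (0.36, 0.027), Klf5 (-0.48, 0.012) and Zfp42 (-0.43, 0.031) were called too. Zfp42 was lost under median ratio scaling and under quantile normalization (0.069 in both). Tfcp2l1 and Zfp42 were lost without any 1 of the 4 libraries (0.052 to 0.15 and 0.078 to 0.15), and Klf5 without LT 1dMeioLC replicate 1 (0.075) or PGC-1dMeioLC replicate 2 (0.089). Tcl1 was 35.0 and 31.7 against 30.8 and 29.1, with a difference of 0.15 (SE 0.21, 0.74), and Fbxo15 30.2 and 30.1 against 30.8 and 30.8.

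Other genes of the network are given by lists made from what the genes are known to do. Of 20 further genes of naive cells, 4 were called higher and 12 lower in ST than in LT at 1dEB (median -0.42, all genes 0.00), where 35.2% of all genes were called. At 1dMeioLC 12 were higher and 6 lower (median 0.73), beside 16.9% and 11.9% of all genes. Nanog, a core factor of the network, went with Esrrb in this: it was 194 and 188 coding TPM in LT 1dEB and 90.6 and 87.4 in ST 1dEB (-1.09, adjusted p = 3.4e-06), and then 48.9 and 43.4 in LT 1dMeioLC and 135 and 127 in ST 1dMeioLC (1.49, 2.1e-06). At 1dMeioLC the largest changes of that list were Dppa3 (-4.03, 6.8e-10), which protects DNA methylation in the early embryo and marks PGCs, Jam2 (2.71, 1.6e-06), Fgf4 (2.28, 2.1e-06) and Zfp57 (1.89, 1.1e-05). Dppa3 and Tcl1 are thus both lower there, and most of the list higher. In RT against ST 1dMeioLC 6 were higher, with Dppa3 at 3.42 (3.6e-09), and 9 lower, beside 8.87% and 20.2% of all genes. In PGC-1dMeioLC against E10.5PGC 14 of the 20 were lower and 4 higher, beside 12.6% and 33.4% of all genes, led by Lefty2 (-6.36, 4.1e-10), Dppa3 (-2.66, 6.2e-10), Tdh (-2.63, 9.8e-08) and Dppa4 (-2.29, 3.4e-08).

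Of 8 core pluripotency genes, 6 were lower and 0 higher in ST than in LT 1dEB. There 35.2% of all genes were called, 5140 higher and 4304 lower. Nanog and Sall4 are also among the 20 genes above, so these lists are not separate. All 8 fell in LT from 1dEB to 1dMeioLC, where 33.5% of all genes did, Pou5f1 (Oct4) by 6.42 (adjusted p = 8.1e-10). Of 15 genes of the formative and primed epiblast, the state that follows the naive one, 10 were lower and 1 higher in ST 1dEB than in LT, led by Zic5 (-1.74, 1.2e-04) and Sox3 (-1.52, 0.0011). In RT 1dEB 11 were lower and 3 higher than in LT, where 37.4% of all genes were called, led by Fgf5 (-2.45, 8.1e-05). At 1dMeioLC 3 of the 15 were higher and 2 lower in ST than in LT, close to the 16.9% and 11.9% of all genes.

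Genes of the signals upstream were listed too. Of 12 genes of LIF and STAT3 signalling, 5 were higher and 3 lower in ST than in LT 1dEB, where 35.2% of all genes were called in either direction, with Junb at 1.89 (adjusted p = 1.2e-04), the kinases Jak2 at 1.69 (7.4e-07) and Jak1 at 1.46 (5e-07), and the ligand Lif at 1.37 (0.0019). At 1dMeioLC 3 of the 12 were called higher in ST and 0 lower, beside 16.9% and 11.9% of all genes. These were Bcl3 at 1.93 (1.4e-04), Junb at 1.57 (8.7e-04) and Stat3 at 0.60 (0.0045). In RT against ST 1dMeioLC 10 of the 12 were lower, beside 20.2% of all genes, led by Bcl3 (-2.01, 1.2e-04). In LT from 1dEB to 1dMeioLC 8 fell and 3 rose, beside 33.5% and 23.7% of all genes, led by the feedback inhibitor Socs3 (-3.69, 3.8e-08). In PGC-1dMeioLC against E10.5PGC 9 were higher and 2 lower, beside 33.4% and 12.6% of all genes, led by Jak2 (2.42, 2.8e-08) and Stat3 (1.74, 9.3e-07). Of 10 genes of the Wnt branch, 5 were higher and 3 lower in ST than in LT 1dEB. Tcf7l1, a repressor of Esrrb and other naive genes, was lower in ST at 1dEB (-1.26, 3.6e-04) and higher at 1dMeioLC (1.18, 0.0011). The part of these signals and regulators in the members' values was not tested. Of 12 other Krüppel-like factors, 8 fell and 2 rose in LT from 1dEB to 1dMeioLC, led by Klf9 (-3.62, 1.4e-09) and Klf16 (-3.34, 2.6e-06), and 4 were lower in RT than in ST 1dMeioLC, beside 20.2% of all genes.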

How the data were processed

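The values that the authors deposited are TPM per gene symbol, and every column used sums to 1000000. Total RNA was made into libraries with a NEBNext Ultra kit, per the labels. Processing notes by the submitters list RSEM, HISAT2, Bowtie2, DESeq2, R 3.4.2 and the build mm10, with roles not given in the sources used here. Of the 28 columns, 12 carry 6 names that each occur 2 times and were not used. The remaining samples of the series were not analysed here.

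TPM was rescaled so that the 21771 nuclear protein-coding symbols (GENCODE M21) sum to 1000000 in each library, because their share of the deposited TPM differed between groups. The filter asked for 1 or more in at least 2 libraries and left 26820 genes. On log2(value + 1), limma 3.58.1 (R 4.3.3) fitted 8 group means with a trend, 8 residual and 2.12 prior degrees of freedom and a 2-sided test, and p was adjusted over all genes left. A fold change on this scale understates the change of low genes. The test was also run on simulated data with independent normal noise. It recovered 79% of log2 changes of 1 and 94% of changes of 2, with 6 false among 179 calls. Such data cannot check the scaling or whether the libraries are independent. Replicate numbers were not taken as pairs: same-numbered libraries deviated together with r between -0.028 and 0.037 over 28 pairs of groups.

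The members and lists were chosen with earlier results of these data known. All 10 members are named wherever given, and up to 4 called genes of a list by size of change. Alternatives were deposited TPM, median ratio scaling, quantile normalization, pseudocounts of 0.1 and 5, no filter, a filter of 5, no trend, only the groups compared, a replicate block and leaving out each library. Promoters are from RefSeq, and 7 of 10 members matched a window that may be shown.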

Additional observations from a re-analysis of the deposited data

Results flagged for a closer look

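The difference between lines was compared directly between 1dEB and 1dMeioLC (limma, Benjamini-Hochberg adjusted over all genes, log2(value + 1) scale). It differed between stages for 5 members in ST minus LT and 6 in RT minus ST, beside 32.6% and 33.2% of all genes. For ST minus LT the difference between stages was 1.40 for Esrrb (SE 0.13, adjusted p = 3.2e-05), 0.77 for Tfcp2l1 (SE 0.14, 0.0019), 0.75 for Nr0b1 (SE 0.18, 0.0083), -1.58 for Tcl1 (SE 0.30, 0.0027) and 1.67 for Fbxo15 (SE 0.16, 3.3e-05). For RT minus ST it was -0.54 for Klf5 (SE 0.15, 0.02), -2.38 for Esrrb (SE 0.13, 1.8e-06), -1.55 for Tfcp2l1 (SE 0.14, 3.3e-05), -0.51 for Zfp42 (SE 0.17, 0.038), -1.22 for Tbx3 (SE 0.19, 0.001) and -0.72 for Nr0b1 (SE 0.18, 0.011). The ST libraries enter both differences. On deposited TPM the RT minus ST values of Klf5 (0.21), Zfp42 (0.22) and Nr0b1 (0.0025) were no longer negative.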

How the results depend on the processing

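Over 1900 values of the members under the alternatives, 1694 kept their direction and their side of the threshold, 106 were no longer called, 36 were newly called and 64 turned direction. The replicate block changed no call of a member (for ST minus LT 1dEB it called 5 members, as without it). On deposited TPM the following turned: ST minus LT 1dEB Nr0b1 0.028; RT minus ST 1dEB Tfcp2l1 -0.045, Zfp42 -0.069, Tbx3 -0.56 and Tcl1 -0.14; RT minus LT 1dEB Klf2 -0.077 and Zfp42 -0.31. At the later stage ST minus LT Zfp42 was -0.057, PGC-1dMeioLC minus E10.5PGC Klf4 -0.085 and LT 1dMeioLC minus PGC-1dMeioLC Fbxo15 0.12. From 1dEB to 1dMeioLC, Zfp42 (0.17) and Nr0b1 (0.23) turned in LT, Tfcp2l1 (0.27) and Tcl1 (0.086) in ST, and Zfp42 (0.58), Nr0b1 (0.69) and Tcl1 (0.73) in RT. Of the differences between stages, ST minus LT Klf4 (-0.048) and Tbx3 (-0.11) turned, as did RT minus ST Klf4 (0.30), Klf5 (0.21), Zfp42 (0.22), Nr0b1 (0.0025) and Tcl1 (0.65). The median of all genes moved on that scale from -0.52 to 0.30 for RT between stages and from 0.09 to -0.38 for RT minus ST 1dEB.

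Under median ratio scaling RT minus LT 1dEB Klf5 (0.022), ST minus LT 1dMeioLC Zfp42 (-0.056), LT 1dMeioLC minus PGC-1dMeioLC Fbxo15 (0.060), Tfcp2l1 between stages in ST (0.11), Tcl1 between stages in RT (0.045), and the differences between stages of Tbx3 for ST minus LT (-0.060) and Tcl1 for RT minus ST (0.11) turned. Quantile normalization turned ST minus LT 1dMeioLC Zfp42 (-0.080), PGC-1dMeioLC minus E10.5PGC Klf4 (-0.53), LT 1dMeioLC minus PGC-1dMeioLC Fbxo15 (0.068), Tfcp2l1 (0.25) and Tcl1 (0.078) between stages in ST, Nr0b1 (0.076) and Tcl1 (0.22) in RT, and the RT minus ST difference between stages of Tcl1 (0.14). A pseudocount of 5 turned the differences between stages of Tbx3 for ST minus LT (-0.11) and Fbxo15 for RT minus ST (-0.0077).

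Leaving out 1 library turned values near 0, with ranges of -0.066 to 0.12 for RT minus ST 1dEB Tbx3, -0.28 to 0.023 for Nr0b1, -0.041 to 0.30 for RT minus LT 1dEB Zfp42, -0.11 to 0.89 for ST minus LT 1dMeioLC Klf4, -0.081 to 0.16 for Zfp42, -0.067 to 0.17 for RT minus ST 1dMeioLC Zfp42, -0.0029 to 0.045 for RT minus LT 1dMeioLC Tfcp2l1 and -0.027 to 0.13 for PGC-1dMeioLC minus E10.5PGC Klf4. Between stages in ST they were -0.18 to 0.057 for Tfcp2l1, -0.098 to 0.14 for Zfp42 and -0.61 to 0.12 for Tcl1. For the differences between stages they were -0.26 to 0.74 for Klf4 in ST minus LT, and -0.97 to 0.028 for Klf4, -0.41 to 0.32 for Tcl1 and -0.11 to 0.21 for Fbxo15 in RT minus ST.

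Counts of called members moved by over 1.5 times in RT minus ST 1dEB (from 4 to 7 on deposited TPM; 3 to 4 without a library), RT minus LT 1dMeioLC (from 3 to 1 with the groups compared only and 0 to 2 without a library), LT 1dMeioLC minus PGC-1dMeioLC (from 5 to 3 on deposited TPM, 3 with the groups compared only and 2 to 3 without a library) and the ST minus LT difference between stages (from 5 to between 5 and 8 without a library). The alternatives not named here gave counts within 1.5 times of these. Counts over all genes were 6324 with the groups compared only and 6289 to 7753 without a library in RT minus ST 1dEB (9518 in the fit as reported), 4798 to 5922 in ST minus LT 1dMeioLC (7728), 1944 and 1307 to 2142 in RT minus LT 1dMeioLC (3592), and 2125 to 3094 in LT 1dMeioLC minus PGC-1dMeioLC (5037). The cause of these moves was not tested. Depth is unknown, which leaves the precision of low values such as Tbx3 in E10.5PGC unknown. Among all called genes, the share that was higher moved with the scaling by over 10 percentage points in every comparison but ST minus LT 1dMeioLC. On deposited TPM it went from 58.5% to 10.3% for RT minus ST 1dEB, from 66.8% to 25.7% for RT minus LT 1dEB, from 54.4% to 69.7% for ST minus LT 1dEB and from 38.5% to 62.0% for LT 1dMeioLC minus PGC-1dMeioLC. Between stages it went from 41.5% to 62.7% in LT, 39.0% to 53.0% in ST and 30.6% to 66.5% in RT, and for the differences between stages from 49.3% to 31.7% (ST minus LT) and 33.0% to 81.9% (RT minus ST). By quantile normalization it went from 30.6% to 46.9% for RT minus ST 1dMeioLC, 35.6% to 47.3% for RT minus LT 1dMeioLC and 72.6% to 49.5% for PGC-1dMeioLC minus E10.5PGC.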
